A study of Homo sapiens with 2 samples.

Results

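The regions described here are the 1531 assembled splice variants whose class code is anything other than j, out of 4993 variants in the deposited list. A class code states how a transcript assembled from the reads lies relative to the nearest annotated transcript, and code j, which marks a new intron combination in a known gene, accounts for the other 3462. The members were chosen by that code alone, with no use of their levels. By class they were 607 of i, 305 of x, 157 of s, 157 of o, 142 of k, 91 of p, 44 of e and 28 of y. They fell into 1416 assembled loci, had 1310 nearest reference genes, and 931 of them had a single exon.

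The RNA came from T47D, an established luminal breast cancer line, grown as secondary mammospheres, which are spheres of cells in suspension. A control culture and a culture with knockdown of CIC, a transcriptional repressor that acts downstream of receptor tyrosine kinase signalling, were each grown for 7 days as primary and 7 more days as secondary spheres. How CIC was knocked down, and what the control received, is not stated in the labels. Duplicates are mentioned in the design text, but each group has 1 sample and 1 column, so there was no replicate check, no test was made, and intervals cover counting error only.

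Transcript assemblers join overlapping aligned reads into models and then divide the coverage of a locus among all models that fit it. A model is therefore a proposed RNA, and its count is an estimate that depends on which other models compete for the same reads. By the usual convention, class i lies inside an intron, e is a single exon that runs partly over an intron, and k contains a whole annotated transcript. Class o overlaps an exon on the same strand in another way, and p lies just past a gene. Class x overlaps an exon on the opposite strand, s shares an intron with the opposite strand, and y holds an annotated gene inside its own intron. The kit was a stranded total RNA kit, which keeps non-polyadenylated RNA, introns and the strand of origin.

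The control library held 49352084 estimated counts and the library labelled CIC knockdown 70698654. CIC itself had 607 and 872 counts, a ratio of 0.989 (95% counting interval 0.891 to 1.1) after scaling, so its RNA did not differ with the label, and directions below are those of the library labelled knockdown. All 10 luminal markers reached 100 counts, with summed levels of 13397 and 13321 counts per 1e6 (CPM). The 5 basal or myoepithelial markers summed to 32.7 and 25.4 CPM. Of these 5, 1 reached 100 counts, and the keratins KRT5 and KRT14 were at 0 in both libraries. The 6 fibroblast markers summed to 61.3 and 127 CPM. Of these 6, 3 reached 100 counts, and COL1A2 and PDGFRB were at 0 in both libraries. Their part in any result was not tested.

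The members with the most counts come first, followed by sequences of selected introns whose ends share bases and of antisense junctions. RN7SL2 and RN7SL3 encode 7SL RNA, the scaffold of the signal recognition particle that brings ribosomes to the endoplasmic reticulum. On GRCh38, in GENCODE release 29, RN7SL2 lies at chr14:49862550-49862849 and RN7SL3 at chr14:49853616-49853914, both on the minus strand. Class o models ran from the first gene into the second. The model MSTRG.5774.2 takes bases 1 to 140 of the first and 141 to 299 of the second.

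The genes differ at 11 of 299 bases (96.3% identity). A run of 123 identical bases lies between bases 119 and 241, counted from base 1 of RN7SL2. The join of MSTRG.5774.2, after base 140, and that of MSTRG.5774.5, after base 209, both fall inside it and both continue at the next base of RN7SL3. Each of these models is 299 bases long and spans an intron of 8935 bases whose ends share at least 40 bases, the limit of the search.

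Some other introns of class o and k also began and ended in copies of one sequence. Each pair below gives 20 exon and 20 intron bases at the start of the intron, then 20 intron and 20 exon bases at its end, from GENCODE transcripts on GRCh38. Capitals mark the bases that both ends share, so the letters alone do not place the junction within them. NORAD, a cytoplasmic noncoding RNA that binds PUMILIO proteins, has an intron of 595 bases in the model MSTRG.12471.1, at chr20:36048855-36049449, with a shared run of 31.
NORAD intron start: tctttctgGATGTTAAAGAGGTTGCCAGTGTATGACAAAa
NORAD intron end: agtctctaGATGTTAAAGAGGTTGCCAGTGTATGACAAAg
SOX4 intron start: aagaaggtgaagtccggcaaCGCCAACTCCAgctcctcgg
SOX4 intron end: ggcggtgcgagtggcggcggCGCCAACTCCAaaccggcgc
PCDHB8 intron start: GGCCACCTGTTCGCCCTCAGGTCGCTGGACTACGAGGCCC
PCDHB8 intron end: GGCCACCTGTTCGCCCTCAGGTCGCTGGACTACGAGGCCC
MALAT1 intron start: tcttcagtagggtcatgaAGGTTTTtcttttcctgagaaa
MALAT1 intron end: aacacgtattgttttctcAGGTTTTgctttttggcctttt

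The SOX4 model, MSTRG.16737.2, leaves out 150 bases at chr6:21594948-21595097, and its ends share 11 bases. The PCDHB8 model, MSTRG.16342.1, spans 14515 bases at chr5:141179588-141194102 within a tandem cluster of protocadherin genes, and the full search length of 40 bases was shared. The MALAT1 intron of MSTRG.3551.4, at chr11:65506028-65506069, is 42 bases long with a shared run of 7. In class o, 46 introns lay inside 1 annotated exon and could be read, with a median length of 112.5 bases. Only 9 of these 46 (19.6%) began with GT and ended with AG, the ends of nearly all spliceosomal introns, against 144 of 315 (45.7%) read the same way in class j. A shared run of 10 or more bases was found in 3 of the 46, and in 83 of the 315 of class j.

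Class s models are read on the strand opposite to a spliced gene. The lines below give the GAPDH, KRT8 and KRT19 mRNA across 1 exon junction and the model of class s over the same bases, with capitals for the 3 bases on each side of the junction.
GAPDH mRNA: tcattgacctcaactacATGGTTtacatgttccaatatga
MSTRG.4102.1: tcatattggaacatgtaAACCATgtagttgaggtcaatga
KRT8 mRNA: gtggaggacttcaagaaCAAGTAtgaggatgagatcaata
MSTRG.4456.1: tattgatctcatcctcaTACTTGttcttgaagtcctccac
KRT19 mRNA: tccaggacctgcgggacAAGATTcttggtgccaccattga
MSTRG.8713.1: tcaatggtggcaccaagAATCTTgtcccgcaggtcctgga

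Across all members the 2 libraries differed little at the median, and 132 of the 160 members past the rule of size below were of classes k, o and s. A member was counted as higher or lower when it had at least 100 counts in a library, differed at least 2-fold in CPM, and its counting interval did not reach 1. By this rule of size 67 of 919 members were higher in the library labelled knockdown (7.29%) and 93 lower (10.1%), or 17.4% in either direction. Over all 43101 transcripts with that many counts 20.5% were higher and 16.5% lower (37.0%), and in class j it was 16.5% each way (33.0%), while over the 14797 genes of the gene table it was 3.0%. The member share thus lay below that of transcripts and above that of genes.

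By class, 63 of 137 members of o passed the rule (46.0%), as did 29 of 54 of s (53.7%) and 40 of 139 of k (28.8%). In classes o and k the calls went both ways, with 33 higher (24.1%) and 30 lower (21.9%) in o and 21 higher (15.1%) and 19 lower (13.7%) in k. In class s they went mostly one way, with 4 higher (7.41%) and 25 lower (46.3%). The remaining classes had few: 18 of 212 in x (8.49%), 6 of 276 in i (2.17%), 1 of 39 in e (2.56%), 1 of 41 in p (2.44%) and 2 of 21 in y (9.52%). In x, 5 were higher (2.36%) and 13 lower (6.13%), in i 2 higher (0.725%) and 4 lower (1.45%), in y 1 each way (4.76%), in e 1 higher, and in p 1 lower. The median log2 ratio over members with at least 20 counts was -0.19 in all, beside 0.0 over all transcripts. It was -1.05 in s (quartiles -1.37 and -0.6), -0.26 in p, -0.22 in i, -0.14 in y, -0.12 in x, -0.06 in e, -0.03 in o and 0.0 in k.

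**Figure D1:**
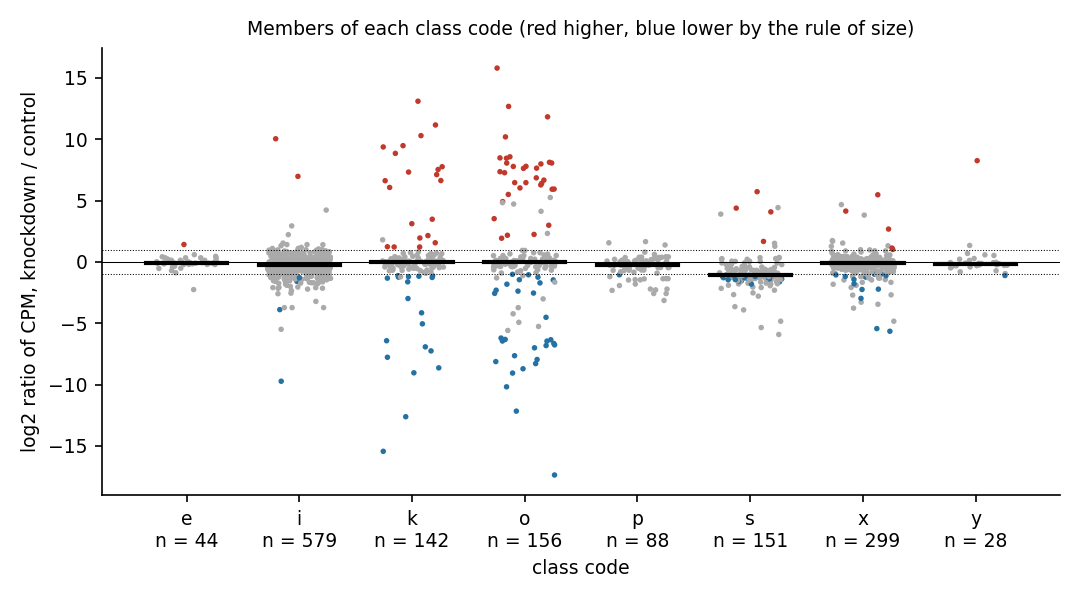
Log2 ratio of CPM, knockdown over control, for each member with at least 20 counts, by class code, with 1 library per group. Black bars are class medians and dotted lines mark 2-fold; most points of class s lie below 0, and classes k and o have points far to both sides.

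Members held 6.61% of control counts and 4.19% of knockdown counts. On the length-scaled TPM the shares were 15.5% and 10.7%. The 11 members over the 7SL genes carried most of this, with 4.48% and 2.6% of counts. Outside the 7SL genes the share was 2.13% and 1.58%. Class o held 4.03% and 2.05% of counts, k 1.02% and 0.513%, and x 1.03% and 1.14%. Class i, with the most members, held 0.395% and 0.36%.

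The 7SL models of class o changed places between the libraries while their locus did not. MSTRG.5774.1 joins bases 1 to 295 of RN7SL2 to bases 141 to 299 of RN7SL3 and had 659654 control and 41820 knockdown counts, 22.9-fold lower (log2 ratio -4.52). MSTRG.5774.3, which joins bases 1 to 293 to bases 121 to 299, had 277670 counts and 0, at least 134389-fold lower against a floor of 3 counts. MSTRG.5774.4, with the same first part and bases 165 to 299, had 0 and 135737, at least 31162-fold higher. So 1 of the 3 long joins was seen in the library labelled knockdown only, another in the control only.

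The pair of 299-base joins described above moved less. MSTRG.5774.2 had 276241 and 373367 counts (log2 ratio -0.1) and MSTRG.5774.5 had 223658 and 255794 (log2 ratio -0.34). Together the 5 models had 1437223 and 806718 counts, a ratio of 0.387. With the annotated RN7SL2 and RN7SL3 included, the locus had 2538534 and 3477931 counts, a log2 ratio of -0.08. In the table made from reference transcripts alone the same genes had 2809233 and 4014799 counts (log2 ratio -0.04). The lower sum of the 5 models thus stood beside a locus total that differed by far less than 1.5-fold.

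Other 7SL models began in short exons far from the gene. MSTRG.5762.1 joins 30 bases at chr14:49545450-49545479 to bases 51 to 299 of RN7SL1 and had 411208 and 453414 counts (log2 ratio -0.4). MSTRG.19630.1, of class x, joins 32 bases on chromosome 9 to bases 51 to 237 of the copy RN7SL5P and had 351363 and 570579 counts (log2 ratio 0.16). On the opposite strand of these genes, MSTRG.5763.1 had 4569 and 3304 counts (log2 ratio -1.01), MSTRG.5775.2 had 4095 and 2957 (-1.01), MSTRG.5775.1 had 1210 and 745 (-1.24) and MSTRG.19631.1 had 995 and 667 (-1.11). All 4 antisense models were lower by about the same factor. Near-identical 7SL copies share reads, so the division among these models is uncertain.

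**Figure D2:**
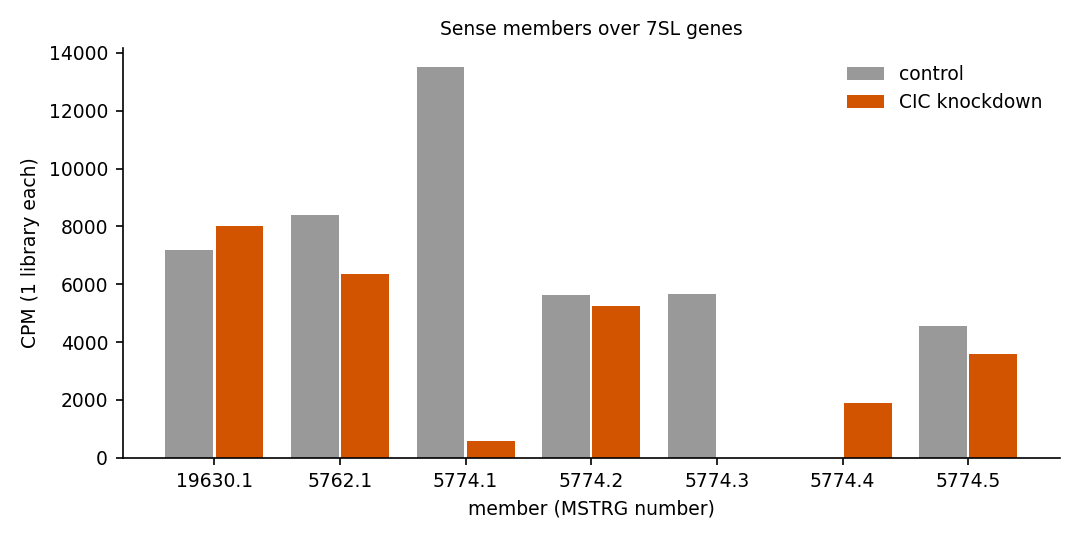
CPM of the 7 sense models over 7SL genes in the control library (grey) and the library labelled knockdown (orange), 1 library each. MSTRG.5774.3 is present only in the control bar and MSTRG.5774.4 only in the knockdown bar, while MSTRG.5774.2, MSTRG.5774.5, MSTRG.5762.1 and MSTRG.19630.1 have bars of like height.

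Most called members of classes k and o lay in loci that differed little as sums. A locus sum was formed from all its variants of classes e, j, k and o and the annotated transcripts of their nearest reference genes. The gene with the largest sense overlap of a member was added where that overlap was large enough. Other genes that a model reaches were left out. The 63 called members of o lay in 49 loci, and only 7 of these loci passed the same rule as sums. The 40 called members of k lay in 31 loci, of which 4 passed. Over the 110 loci of o with a member of at least 100 counts the share called was 6.36%, and over the 104 of k 3.85%, beside 3.0% of genes. The median absolute log2 difference of the called members was 6.65 in o and 6.25 in k, and that of their loci 0.18 and 0.17. Called members in both directions were found at 7 loci of o and 2 of k. In o, 40 members had at least 100 counts in one library and 0 in the other (29.2% of 137, beside 6.53% of all members and 9.88% of all transcripts), and in 37 of these the locus differed by less than 1.5-fold.

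**Figure D3:**
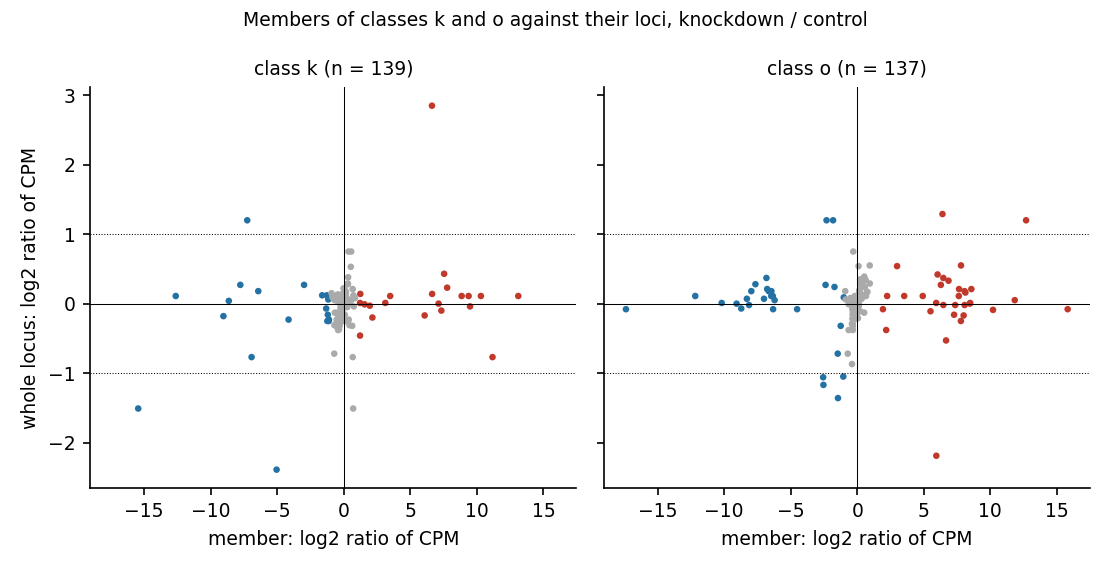
Log2 ratio of CPM of each member of class k or o with at least 100 counts (horizontal axis) against that of its whole locus (vertical axis), knockdown over control, 1 library each. Members called higher (red) or lower (blue) spread to both sides, while most loci lie between the dotted 2-fold lines.

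NORAD, SOX4 and KLHL9 are examples with a flat locus. The NORAD model MSTRG.12471.1 had 0 control and 8631 knockdown counts, at least 1981-fold higher, while the locus had 36893 and 55495 (log2 ratio 0.05). The model of SOX4, a transcription factor of progenitor and cancer cells, MSTRG.16737.2, had 1898 and 0 counts, at least 919-fold lower, beside a locus log2 ratio of 0.01. For KLHL9, an adaptor of a cullin ubiquitin ligase, MSTRG.19671.1 had 0 and 2778 counts and the locus a log2 ratio of -0.09. JUND, an AP-1 subunit, had 1 model at 404 and 0 counts, MSTRG.10073.4, and another at 0 and 630, MSTRG.10073.3, with a locus log2 ratio of 0.18. These JUND models differ by 1 base in intron length, 102 and 103 bases.

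Pseudogenes and gene copies were among the others. The models of the pseudogene HNRNPCP2, MSTRG.11823.2 and MSTRG.11823.4, had 455 and 0 counts and 0 and 386 counts. For NUDT4B, MSTRG.1272.1 had 176 and 0 counts and MSTRG.1272.2 had 0 and 899. The HSP70 gene HSPA1A, which has a near-identical neighbour, had MSTRG.16988.3 at 10601 and 2950 counts and MSTRG.16988.2 at 22 and 2663, with a locus log2 ratio of 0.27. That sum holds annotated transcripts of HSPA1A and SNORD52 only, not of the neighbour. HSPA1A also had the class k models MSTRG.16988.1 at 2922 and 17 counts and MSTRG.16988.5 at 3402 and 621. HNRNPCP2 also had MSTRG.11823.3 at 0 and 207. In each of these 3 genes at least 1 model was higher and at least 1 lower. Reads of such copies can be assigned to either copy, so these values are uncertain.

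At 2 nuclear noncoding RNAs of chromosome 11 the locus sum also differed, but not the same way in every table. MALAT1 is an abundant nuclear RNA whose 3′ end releases the tRNA-like mascRNA. The class k model MSTRG.3551.4, at chr11:65499069-65508279, spans that end and had 204428 control and 8955 knockdown counts, 33.1-fold lower (95% counting interval of the ratio 0.0295 to 0.0308). The MALAT1 locus had 293946 and 81316 counts (log2 ratio -2.39). Quantified on reference transcripts alone, MALAT1 and mascRNA had 69168 and 72846 counts, a log2 ratio of -0.48, which does not pass the rule.

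NEAT1 is the scaffold RNA of paraspeckles. MSTRG.3547.4, which starts inside the gene and contains MIR612, had 72819 control counts and 0 in the library labelled knockdown, at least 35244-fold lower. MSTRG.3547.1, which spans nearly all of the long isoform, had 25112 and 59320 counts (log2 ratio 0.7). The NEAT1 locus was lower, with 118053 and 60156 counts (log2 ratio -1.51). In the table of reference transcripts alone NEAT1 was higher, with 57415 and 192794 counts (log2 ratio 1.19). The direction at NEAT1 therefore depends on the table, and the cause was not tested.

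Further loci also passed as sums. The class o model MSTRG.17270.1, at chr6:71403424-71403747 over MIR30A, had 9519 and 6677 counts (log2 ratio -1.05, interval 0.468 to 0.499), and its exons contain no whole mature miR-30a. H2AFJ, a replication-independent histone gene, had a locus log2 ratio of -2.19 and 0.2 in the reference-only table, with MSTRG.4222.1 at 0 and 143 counts. The pseudogene EIF4BP6 had -1.17 and -0.36, with MSTRG.18429.2 at 1423 and 353 counts. The other loci of called members that passed were TRG-GCC1-5 (log2 ratio 2.85), CAMK2N2 (1.29), TRABD2A with LOC105374836 (-1.36), LOC112268239 (-1.06) and LOC112268284 in the ribosomal DNA (1.2). Several of these sums were mostly the called member itself, so they add little to its call. The member held 9519 of 9522 control counts at MIR30A, 219 of 227 at TRABD2A and 232 of 238 at LOC112268239. Of knockdown counts it held 231 of 235 at TRG-GCC1-5 and 198 of 217 at CAMK2N2. The sum at LOC112268284 leaves out class x models of the same assembled locus, which went both ways. That gene had 0 counts in the reference-only table. In the reference-only table, NEAT1 was the 1 call among the 28 loci of called k members that reached 100 counts there, and 0 of 45 such loci of o were called. RBM15, with 1495 and 4714 counts (log2 ratio 1.1), and C6orf141, with 3374 and 10955 (1.14), also passed in that table, at loci without a called member. The pseudogene RPSAP15 passed as a locus sum, with 1161 and 108 counts (log2 ratio -3.94), but not in the reference-only table (0.14), and its members had under 100 counts.

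**Figure D4:**
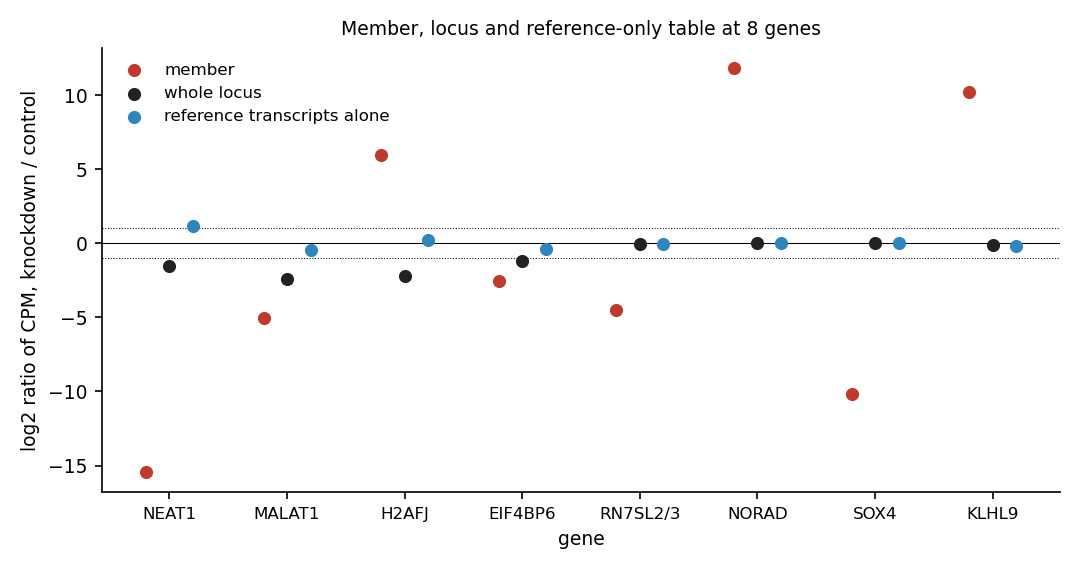
Log2 ratio of CPM, knockdown over control, of 1 member (red), its whole locus (black) and its genes in the table of reference transcripts alone (blue) at 8 genes, 1 library each; a member at 0 in a library is placed by the prior count of 2 and is no bound. Loci and reference-only values nearly coincide at RN7SL2/3, NORAD, SOX4 and KLHL9, and lie on opposite sides of 0 at NEAT1 and H2AFJ.

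Class k models often contained a small RNA gene whose host transcript they extend. Exons of 34 members held 39 mature miRNAs of 28 genes, matched by position to RefSeq on GRCh38. MicroRNAs act through the seed, bases 2 to 8, in capitals below, and the 39 had 38 different seeds. The shared seed was that of miR-3916 and miR-6859-5p. The counts are of the long model and say nothing of the mature miRNA. Those below sit in models named for their abundance or their difference, except miR-3916, which has the shared seed.
hsa-miR-21-5p: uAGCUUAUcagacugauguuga
hsa-miR-22-3p: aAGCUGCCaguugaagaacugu
hsa-miR-7706: uGAAGCGCcugugcucugccgaga
hsa-miR-10399-5p: aAUUACAGauugucucagaga
hsa-miR-3916: aAGAGGAAgaaauggcugguucucag

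MSTRG.8977.1 runs through exons of VMP1, a gene of autophagy, and MIR21 at chr17:59841273-59841294 for 5p. It had 20088 and 31881 counts (log2 ratio 0.13). MSTRG.8152.1 over MIR22 and its host MIR22HG had 1 and 611 counts, while the locus had 476 and 646 (log2 ratio -0.1). MSTRG.6962.1, which holds MIR7706 in AKAP13, a kinase-anchoring protein, had 504 and 2835 counts (log2 ratio 1.95) beside a locus ratio of -0.03. MSTRG.18605.5, which holds miR-10399-5p in the antiviral gene ZC3HAV1, had 649 and 0 counts, at least 314-fold lower, beside a locus ratio of 0.04. MSTRG.2139.4, the most abundant of the models with miR-3916, had 2671 and 3093 counts (log2 ratio -0.33). The 3 large differences thus lay in loci within 1.5-fold.

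Models without a miRNA had like values. MSTRG.20966.1 contains RNF113A, a zinc finger protein of the spliceosome, and had 860 and 0 counts beside a locus log2 ratio of -0.18. MSTRG.17336.3 contains the snoRNA host SNHG5 and had 0 and 1690 counts beside -0.04. MSTRG.20329.4, over SNORD141A and the pseudogene EEF1A1P5, had 0 and 5450 counts, beside a locus ratio of -0.77 and -0.14 in the reference-only table. The histone genes below had members in opposite directions, HIST1H2BO with MSTRG.16868.1 at 2450 and 39 counts and HIST1H2BN with MSTRG.16860.1 at 422 and 1430.

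In all, 30 members lay in the ribosomal DNA stretch of chromosome 21, which carries tandem copies of the 45S precursor of ribosomal RNA. Of the 29 with at least 100 counts, 11 were higher and 9 lower, beside 20.5% higher and 16.5% lower over all transcripts. MSTRG.12853.19 had 0 and 20866 counts and MSTRG.12853.28 had 10307 and 0, both of class k on the sense strand. The sense locus as a whole had 67902 and 106534 counts (log2 ratio 0.11). On the opposite strand MSTRG.12863.10, of class x, had 1006 and 25860 counts, 17.7-fold higher, MSTRG.12863.9 had 5230 and 173, and MSTRG.12855.1 had 24393 and 52649. The copies are near-identical, so the division among them is uncertain.

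Class s was the only class whose median ratio was past 2-fold. Of its 593 introns, 587 are annotated introns of the gene on the other strand, and on average 94.2% of a member's exon bases are antisense to annotated exons. In 149 members, over genes with at least 100 counts in both libraries, the median member had 0.328% of its gene's counts in the control and 0.191% in the library labelled knockdown. The median log2 ratio of these members was -1.05, while that of the genes was -0.03 (quartiles -0.13 and 0.06). Of 151 members with at least 20 counts, 131 had a log2 ratio below 0 (86.8%), against 50% of all transcripts. A counting interval wholly below 1 was found in 123 (81.5%), against 34.8% of all transcripts.

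The members over the most abundant genes, chosen for this after their values were seen, give the pattern. EEF1A1, the translation elongation factor that brings tRNA to the ribosome, had 472868 and 625919 counts, and its antisense model MSTRG.17276.1 had 840 and 548 (ratio 0.449, interval 0.403 to 0.501). KRT8, a keratin of luminal cells, had 244736 and 345255 counts and MSTRG.4456.1 had 563 and 364 (0.445, 0.389 to 0.509). KRT19 had 99967 and 147487 counts and MSTRG.8713.1 had 278 and 161 (0.399, 0.326 to 0.486). In these 3 genes the antisense model was lower while the gene was nearly level.

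GAPDH, a glycolytic enzyme, had 147768 and 213103 counts, and MSTRG.4102.1, with 9 exons at chr12:6534528-6538369 on the minus strand, had 330 and 195 (0.407, 0.339 to 0.487). TMSB4X, an actin-binding peptide, was itself lower, with 77469 and 70010 counts, and MSTRG.20543.1 had 255 and 104 (0.281, 0.221 to 0.354). Single-exon members of class x over RN7SK and RMRP, noncoding RNAs made by RNA polymerase III, had like values and were also named after these were seen. MSTRG.17211.1 over RN7SK had 3434 and 1846 counts (0.37, 0.35 to 0.392) beside 1947129 and 2625431 of the gene. MSTRG.19743.1 over RMRP had 788 and 502 (0.439, 0.392 to 0.491) beside 358228 and 492266. Low-share members of x did not all do so. The 27 below 1% of the gene in the control had a median log2 ratio of -0.21 (quartiles -1.12 and 0.24).

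The most abundant members of s were more mixed. Below 1% of the gene in the control, 112 members had a median log2 ratio of -1.08, and between 1% and 10%, 32 members had -0.98. By count, 97 members with 20 to 99 counts had a median of -1.11, 44 with 100 to 499 had -1.06, and 10 with 500 or more had -0.14. Over SULF2, a heparan sulfate sulfatase, MSTRG.12612.2 had 2621 and 3267 counts (log2 ratio -0.22) and MSTRG.12612.1 had 172 and 801 (1.67). Over TRIM37, a ubiquitin ligase, MSTRG.8961.1 had 892 and 1647 counts (0.35). Over SPTSSB, a subunit of serine palmitoyltransferase, MSTRG.14560.1 had 824 and 1121 (-0.09). These abundant members did not share the lower level of the class.

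**Figure D5:**
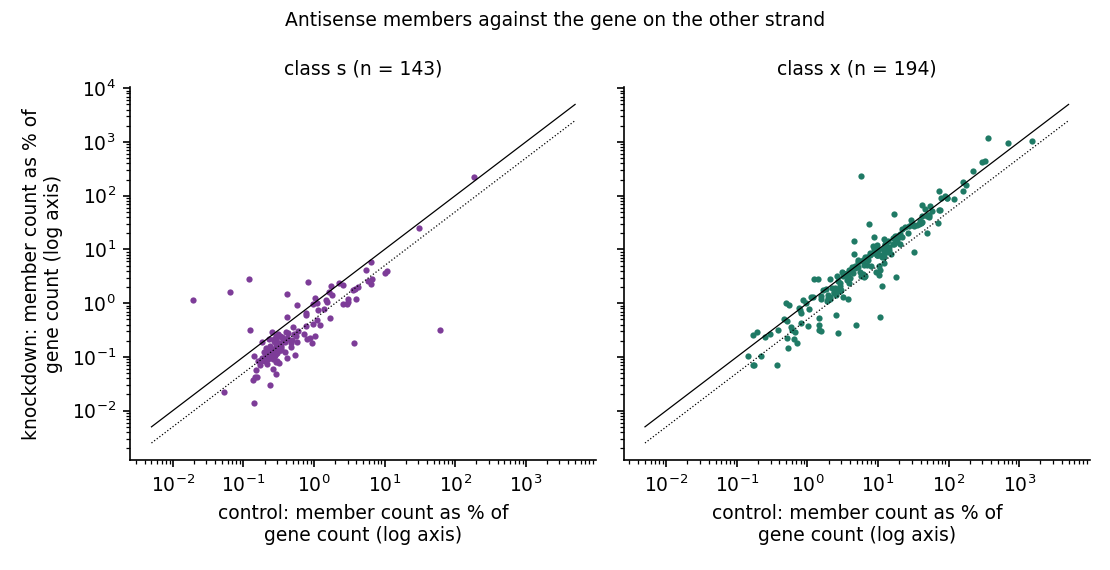
Count of each member of class s (left) and class x (right) as a percentage of the count of the gene on the other strand, control on the horizontal and knockdown on the vertical log axis, for genes with at least 100 counts in both libraries; 6 of the 149 members of s have 0 counts in a library and are not drawn. The solid line marks equal shares and the dotted line a 2-fold lower share; points of class s cluster near the dotted line at shares below 1%, and points of class x above 10% lie near the solid line.

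Class x, the other antisense class, was nearly level. Its 194 members over such genes had 6.76% of the gene's counts in the control and 5.42% in the library labelled knockdown at the median, and a median log2 ratio of -0.14. Of 305 members, 235 have 1 exon, and 51 (16.7%) start within 1000 bases behind a RefSeq start on the other strand, the layout of a divergent promoter. In class s it was 3 of 157 (1.91%). The x members with 20 to 99 counts had a median of -0.55, those with 100 to 499 had -0.08 and those with 500 or more 0.01. In class j the same bands gave -0.56, -0.24 and 0.01, and in annotated transcripts -0.09, 0.0 and 0.09.

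Of the 18 called members of x, 5 lay in the ribosomal DNA, 3 over 7SL genes and 3 over FAM83B, and RN7SK and RMRP had 1 each. The other 5 included MSTRG.13142.1 over IL17RA with 38 and 114 counts, MSTRG.10584.2 at SNAR-A5 with 0 and 103, MSTRG.11968.1 over FN1 with 110 and 72, and MSTRG.19369.1 over AARD with 246 and 170. Among these 5, 2 were higher and 3 lower. MSTRG.9027.1 over BRIP1, a DNA repair helicase, had 2821 and 3714 counts (ratio 0.907, interval 0.863 to 0.953). MSTRG.8936.1 over SRSF1, a splicing factor, had 646 and 1061 (1.13, 1.02 to 1.25). The 3 models over FAM83B split the other way, with MSTRG.17221.1 at 324 and 135 counts, MSTRG.17221.2 at 343 and 103, and MSTRG.17221.3 at 310 and 988. MSTRG.20468.1, opposite the mitochondrial ribosomal RNA gene RNR1, had 4314 and 6571 counts (log2 ratio 0.07).

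Intronic members of class i were many and mostly level. Of the 607, 561 have 1 exon, and the strand of the reference gene was known for 428, with 274 on its strand and 154 opposite. Same-strand members had a median log2 ratio of -0.29 and opposite-strand members -0.1, while the genes had -0.01 and 0.0. The median was -0.37 at 20 to 99 counts and -0.08 at 500 or more. On the gene's strand, unspliced RNA of the gene and a separate intronic RNA cannot be told apart.

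The most abundant were long models in introns of ERBB4, TRPS1 and ZNF804A and a short one in LOC107984974. In ERBB4, a receptor tyrosine kinase of the EGFR family, MSTRG.11957.2 covers 127324 bases at chr2:212297929-212425252 without an intron and had 49584 and 63808 counts (ratio 0.886, interval 0.876 to 0.897). MSTRG.11956.1, in the same gene, had 8246 and 11501 (0.961, 0.934 to 0.988), and MSTRG.11957.1 had 0 and 2496. In TRPS1, a GATA-type repressor of luminal cells, MSTRG.19360.1 had 16085 and 21043 counts (0.901, 0.883 to 0.92), and MSTRG.19360.2 had 1970 and 1. MSTRG.11795.1 in ZNF804A had 7536 and 8594 (0.785, 0.761 to 0.81). MSTRG.8568.1 in LOC107984974 had 5645 and 8284 counts (log2 ratio 0.02). These abundant models differed by less than 1.5-fold, and the large differences were in minor models beside them.

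Few intronic members passed the rule. MSTRG.459.6 in SRSF4, a splicing factor, had 401 and 37 counts, 15.7-fold lower, while the gene had a log2 ratio of -0.11. MSTRG.8954.1 in TEX14 had 115 and 54 (ratio 0.323) and MSTRG.21004.3 in RAP2C-AS1 had 569 and 336 (0.407). Opposite RRBP1, a ribosome-binding protein of the endoplasmic reticulum, MSTRG.12307.2 had 0 and 296 counts and passed the rule. MSTRG.12307.3, with 72 and 0, and MSTRG.12307.1, with 602 and 731, did not. These are spliced and unspliced models of overlapping bases on the plus strand. Though of class i, all their exon bases lie opposite exons of RRBP1 in GENCODE.

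Classes e, p and y were small. Of class e, 27 of 44 members had a long noncoding reference gene and 21 (47.7%) a divergent start, against 23.4% in class j. MSTRG.3800.2 near RAB30-DT had 3243 and 4649 counts (ratio 0.987), MSTRG.4220.2 at LOC105369669 had 2168 and 3983 (1.27, 1.2 to 1.33), and MSTRG.2790.2 at LOC107984262 was the 1 call, with 53 and 210 (2.73, 2.01 to 3.76).

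Class p models, which may be read-through past a gene's end, included 2 next to miRNA genes of epithelial cells. MSTRG.12008.1 beside MIR375 had 211 and 411 counts (ratio 1.34, interval 1.13 to 1.59), and MSTRG.18553.1 beside MIR96 had 302 and 574 (1.31, 1.14 to 1.51). The call of the class was MSTRG.14406.1 past PCCB, with 110 and 76 (0.476, 0.35 to 0.643).

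In class y, 11 of 28 members enclose snRNA-type genes such as the SNAR repeats of chromosome 19, for example MSTRG.10482.3 with 271 and 318 counts (0.808, 0.685 to 0.954) and MSTRG.10482.7 with 120 and 252 (1.45, 1.16 to 1.81). MSTRG.1820.2 had 0 and 722 counts while MSTRG.1820.3 at the same locus had 796 and 1055.

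Presence in 1 library only was concentrated in class o. In all, 37 members had counts in the control only and 46 in the knockdown only (5.42% of 1531). Over the 99246 transcripts with any count it was 25.0%. Their count levels are unlike, since 1487 of the members but only 72252 of those transcripts had at least 20 counts. With at least 100 counts in the other library it was 6.53% of members and 9.88% of transcripts. Class o had 21 members in the control only and 28 in the knockdown only (31.2% of 157), and class k 6 and 9. The share of a member in the summed counts of all transcripts under its gene entry (the host share) was also taken. For named members of k and e that entry was a reference gene. For those of i, o, s, x and y it was the assembled locus, without the annotated transcripts. In 258 members the entry had several transcripts and at least 100 counts in both libraries. Of these, 43 held a share higher by 10 percentage points or more and 49 a lower one. That is 35.7%, beside 22.8% of all transcripts with at least 20 counts in such entries. Most of the latter are annotated transcripts, so the percentages rest on unlike denominators.

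None of the 20 listed CIC target genes had a member. Outside that list, the class k model MSTRG.1949.1 of DUSP10, a phosphatase of MAP kinases, had 0 and 512 counts, at least 118-fold higher, beside a locus log2 ratio of 0.23; it is named here after its values were seen. Of 11 CIC cofactor genes 1 did, ARID1A, a subunit of the SWI/SNF chromatin remodeller, whose class y model MSTRG.415.1 had 667 and 934 counts (ratio 0.964, interval 0.872 to 1.07). Of 60 splicing factors and regulators 7 had 10 members, 3 of them with at least 100 counts. Besides SRSF4, RBM25 had antisense models MSTRG.5995.1 at 4 and 136 counts and MSTRG.5995.2 at 97 and 0. Among the 7 genes 1 member was higher and 1 lower by the rule.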

How the data were processed

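Per the submitters' processing notes, Trimmomatic, HISAT2 and StringTie were used with hg38 or GRCh38, with no versions. The authors deposited an estimated count, an FPKM and a TPM per transcript in each library. No label names the program behind the class codes or says whether a column pools duplicates. All 4993 variants had the same counts in the deposited transcript table. Log2 ratios of CPM used edgeR 4.0.16 TMM factors, a prior count of 2 and exact 95% Clopper-Pearson counting intervals; no test was made. Annotation and sequences came from GENCODE release 29 and RefSeq, and introns of chromosome 8 were not read for sequence. Named members were the 5 most abundant, highest and lowest of each class, the 3 largest host share rises and falls, and CIC-list genes; others were named after their values were seen, as were the locus sums and the count bands. Members and lists were chosen with earlier results of these data known. The number of per-sample value columns not used was 0.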

Additional observations from a re-analysis of the deposited data

How the results depend on the processing

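No paired analysis was possible because each group has 1 library. Scaling by DESeq2 1.42.0 size factors or library totals, deposited TPM or FPKM ratios with a pseudocount of 0.01, and a prior count of 0.5 left all class counts within 1.5 times and the median of all transcripts within 0.02 of 0. Of 133 named members, none that passed the rule reversed direction, and direction was not compared for the others. In addition 2 members came to pass 2-fold, MSTRG.12655.8 and MSTRG.14820.1. The count minimum mattered more. With a minimum of 20 counts, 372 of 1487 members passed, 272 of them lower. These included 2 in e, 94 in i, 21 in p, 86 in s and 47 in x. With no minimum 402 of 1531 passed, 302 of them lower. These included 2 in e, 112 in i, 24 in p, 91 in s and 51 in x. With a minimum of 500, 78 passed, 37 higher and 41 lower, with 0 in e, 3 in i, 25 in k, 34 in o, 0 in p, 3 in s and 11 in x. At 1.5-fold 256 of 919 passed, 157 of them lower. These included 3 in e, 42 in i, 3 in p, 37 in x and 4 in y. The rule was not run over all transcripts at these minima or at 1.5-fold. Whether the lean to lower is particular to the members was therefore not tested. Without the 7SL and ribosomal DNA members, chosen after seeing the data, 10 passed in x and 1 in y. At a minimum of 100 counts the median log2 ratio was -0.1 over all members, -0.14 in i, -0.08 in p and -0.05 in x. Summed TPM gave member shares of 15.5% in the control and 10.7% in the knockdown library. With reference transcripts alone, also added later, 1 of the 31 loci of called k members and 0 of the 49 of o passed in place of 4 and 7; the cause was not tested. Halving the counts behind the interval, host shares by TPM, and 20 counts for presence in 1 library changed no count by over 1.5 times. At low depth the intervals are wide, from 0.35 to 0.643 for MSTRG.14406.1 with 110 and 76 counts, and with 1 library per group differences between cultures cannot be told apart from the knockdown.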

Other observations

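Divergent starts differed between the classes. A start within 1000 bases behind a RefSeq start of the other strand was found in 21 of 44 members of e (47.7%, exact 95% interval 32.5% to 63.3%), 40 of 142 of k (28.2%, 20.9% to 36.3%), 29 of 157 of o (18.5%, 12.7% to 25.4%), 31 of 607 of i (5.11%, 3.5% to 7.17%) and 0 of 28 of y, which allows up to 12.3%. Members with such a start had median log2 ratios between -0.18 in o and -0.01 in e, leaving out p and s, which had 2 and 3.

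Across members with at least 100 counts, the log2 ratio of a member and that of its reference gene had Pearson's r of 0.76 in k (n = 139), 0.7 in e (n = 39), 0.31 in s (n = 53), 0.06 in i (n = 227), -0.08 in x (n = 141) and -0.32 in o (n = 117). The points share both libraries. A member of k or e can be counted within its gene, while a member of o is counted apart from it and competes with it for reads. These values are therefore a description only.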
